A study of Mus musculus with 6 samples.

Results

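Marker genes of hepatic stellate cells and of the myofibroblasts they can become were followed in liver RNA of mice whose hepatocytes lack Fam210a. The markers were 10 genes taken by symbol from the gene count table (Lrat, Des, Pdgfra, Pdgfrb, Rgs5, Reln, Hgf, Acta2, Tagln and Vim), out of 54532 genes in all. All 10 had counts and 9 of them passed the filter on low counts. The libraries were made from whole liver of mice aged 5 weeks, 3 from Fam210aHKO animals, a knockout of Fam210a in hepatocytes, and 3 from Ctrl animals. No other treatment or allele is named in the labels. Which Cre line drove the deletion, which part of Fam210a was deleted and the strain of the mice are not named there. Groups were set by the sample titles, because the genotype field names a gene other than Fam210a for Fam210aHKO replicates 2 and 3. Samples are numbered within a group and not called separate animals, so a p-value here reflects sample-to-sample spread that may be technical.

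Hepatic stellate cells lie between hepatocytes and the sinusoidal endothelium and hold most of the body's vitamin A as retinyl esters in lipid droplets. After liver injury they can lose these droplets, respond to platelet-derived growth factor and transforming growth factor beta, and turn into contractile myofibroblasts that express smooth muscle actin and deposit collagen. Some of the marker genes are shared with other cells, since Vim is made by most mesenchymal, endothelial and immune cells, and Acta2, Tagln and Des are also made by vascular smooth muscle.

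Library totals ran from 12541465 to 19655235 counts in Fam210aHKO and from 12984268 to 16877560 counts in Ctrl. Levels below are in CPM, counts per 1e6 counts, after scaling by trimmed mean of M-values (TMM) factors, and a count of 1 was worth 0.0439 to 0.0870 CPM. Fam210a itself had 31.7, 28.6 and 44.2 CPM in Fam210aHKO replicates 1 to 3 and 119, 136 and 162 CPM in Ctrl replicates 1 to 3 (log2 fold change -1.99 ± 0.194 (SE), adjusted p = 4.42e-05). The TMM factors averaged 1.17 in Fam210aHKO and 0.855 in Ctrl, so the scaling bears on every level below. Scaled by library totals alone, the 13706 tested genes had a median log2 fold change of 0.47 and not 0.02, a shift of 0.45, and the share of higher genes among those called was 87.1% in place of 50.9%. The summed level of 10 hepatocyte markers ran from 83118 to 102947 CPM in Fam210aHKO and from 145495 to 221801 CPM in Ctrl. In bulk tissue, fewer cells of a type and less RNA per cell cannot be told apart.

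Of the 9 tested markers, Pdgfra alone was called higher in Fam210aHKO (adjusted p under 0.05), and 0 were called lower. Over all tested genes 14.0% were called higher and 13.5% lower, so 1 of 9 is near the background. At an unadjusted p under 0.05 edgeR had 2 of the 9 higher, Pdgfra and Vim, and 0 lower, and DESeq2 called 1 higher and 0 lower. At that unadjusted p 19.6% of all tested genes were higher and 19.2% lower, so 2 of 9 is near the background as well. All 9 log2 fold changes were above 0, with a median of 0.41, against 0.02 over all tested genes. Without Fam210aHKO replicate 3 the median was 0.093, with 6 of the 9 above 0, and without Ctrl replicate 2 it was 0.33, also with 6 above 0. In 2 of the 9 markers the groups did not overlap, with every Fam210aHKO library above every Ctrl library, as in 22.0% of all tested genes. The highest of the 6 libraries was Fam210aHKO replicate 3 for 7 of the 10 markers. The summed level of the 10 was 189, 221 and 330 CPM in Fam210aHKO replicates 1 to 3 and 178, 182 and 209 CPM in Ctrl replicates 1 to 3.

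**Figure D1:**
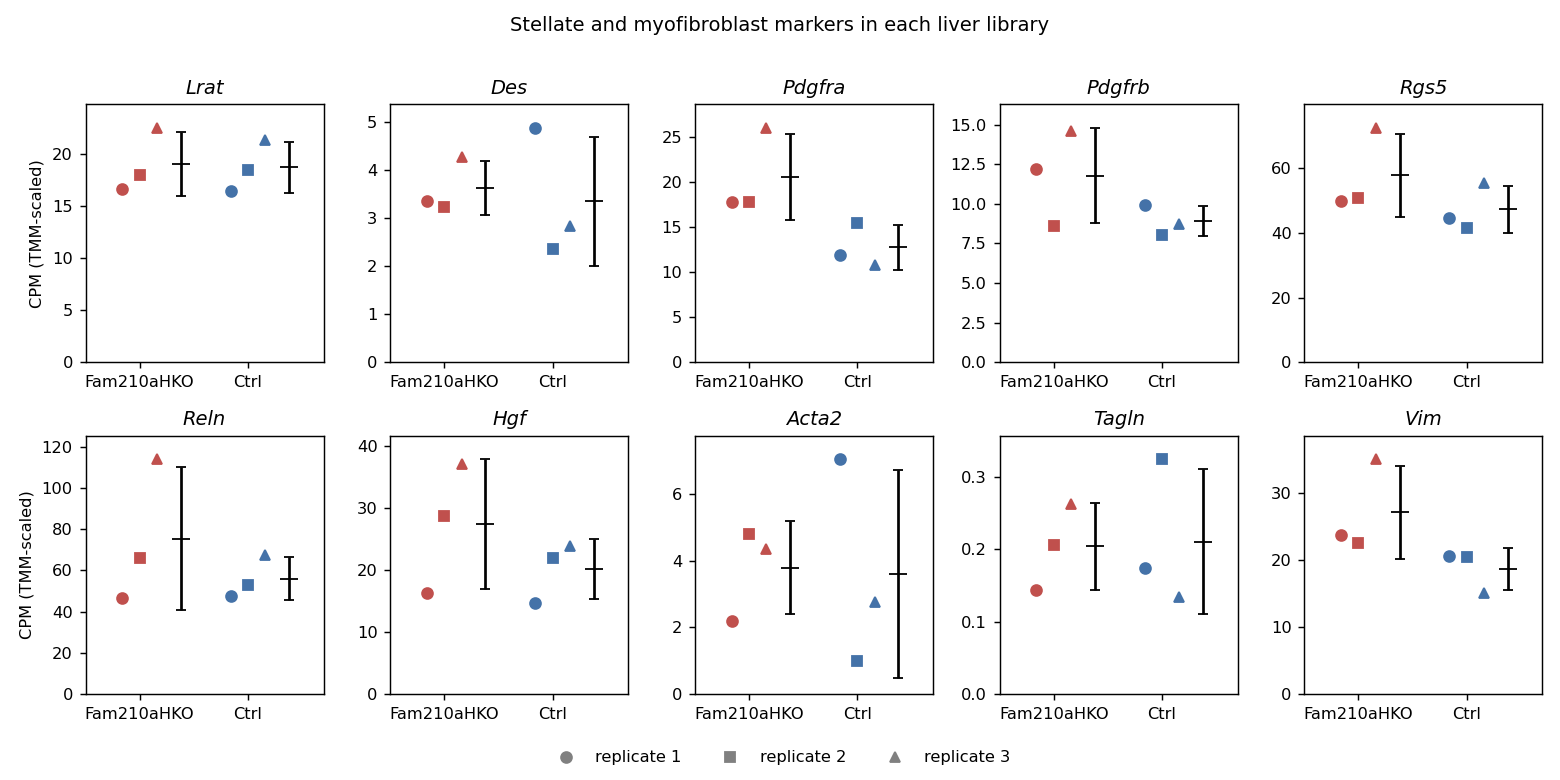
Level of each marker in CPM with TMM scaling, 1 panel a gene, with 1 point a library (circle, square and triangle for replicates 1, 2 and 3) and the group mean ± SD beside the points (n = 3 each). Fam210aHKO replicate 3 is the highest library in 7 of the 10 panels, and Pdgfra and Vim are the panels in which the groups do not overlap.

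Scaling by library totals gave another count. It called 6 of the 9 higher (Pdgfra, Vim, Hgf, Reln, Pdgfrb and Rgs5), when 42.7% of all tested genes were higher by that scaling. The median of the 9 was then 0.86, against 0.47 over all tested genes. Groups did not overlap for 5 of the 9, against 51.9% of all tested genes. The order of the fold changes, led by Pdgfra and Vim and ending with Lrat, was the same by both scalings.

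**Figure D2:**
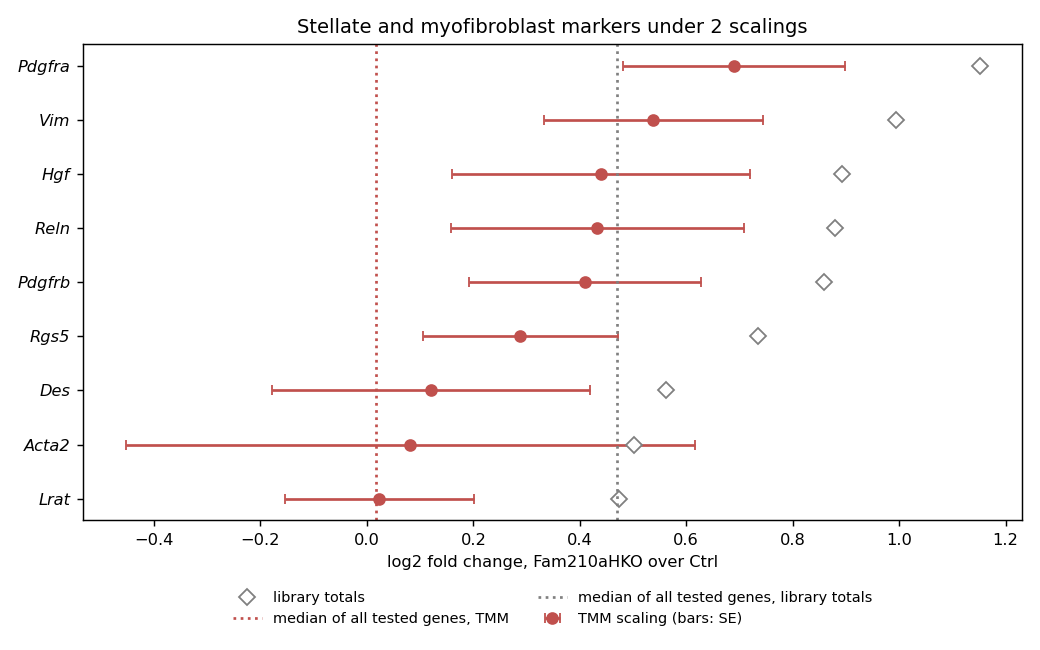
Log2 fold change of Fam210aHKO over Ctrl for the 9 tested markers by TMM scaling (filled circles, bars ± 1 SE) and by library totals (open diamonds), with dotted lines at the median of all tested genes by each scaling. Library totals move the median of all genes from 0.02 to 0.47 and each marker by a like amount.

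Levels between genes were compared per kilobase of exon. In Fam210aHKO the order was Rgs5 (12.7 ± 2.80 CPM per kb), Vim (5.70 ± 1.45), Hgf (3.80 ± 1.46), Lrat (3.56 ± 0.574), Reln (3.18 ± 1.46), Pdgfrb (2.15 ± 0.548), Acta2 (2.13 ± 0.782), Pdgfra (2.05 ± 0.473), Des (0.962 ± 0.149) and Tagln (0.103 ± 0.0301) (SD, n = 3). In Ctrl it was Rgs5 (10.4 ± 1.62 CPM per kb), Vim (3.93 ± 0.657), Lrat (3.50 ± 0.458), Hgf (2.80 ± 0.679), Reln (2.35 ± 0.438), Acta2 (2.02 ± 1.75), Pdgfrb (1.62 ± 0.173), Pdgfra (1.27 ± 0.244), Des (0.892 ± 0.356) and Tagln (0.106 ± 0.0505) (SD, n = 3). Rgs5 at the top and Tagln at the bottom stood apart from their neighbours by more than the SDs in both groups. The genes from Hgf or Lrat down to Reln, and from Pdgfrb or Acta2 down to Pdgfra, lay within each other's SDs in Fam210aHKO.

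Promoter windows of RefSeq (GRCm38.p6), 250 bases before to 50 after the transcription start, were searched for 8 of the 10 markers, without Pdgfrb and Tagln. Those of Pdgfra, the marker called higher, and of Acta2 and Lrat, the markers among these 8 whose windows hold a CArG box, are printed 5′ to 3′ on the gene's strand. The CArG box is the element bound by serum response factor at contractile genes, searched here with at most 1 other base in its A/T core of 6 bases. Capitals mark a CArG box or CATTCC, the core bound by TEAD factors, on either strand. The Pdgfra window is chr5:75152001-75152300 (plus strand), that of Acta2 chr19:34255324-34255623 (minus strand) and that of Lrat chr3:82903925-82904224 (minus strand).
Pdgfra: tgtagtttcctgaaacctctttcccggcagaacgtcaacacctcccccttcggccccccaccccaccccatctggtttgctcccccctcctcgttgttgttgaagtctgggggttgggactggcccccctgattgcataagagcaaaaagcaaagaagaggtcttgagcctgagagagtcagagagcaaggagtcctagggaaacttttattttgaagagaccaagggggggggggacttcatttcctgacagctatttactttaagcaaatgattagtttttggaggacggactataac
Acta2: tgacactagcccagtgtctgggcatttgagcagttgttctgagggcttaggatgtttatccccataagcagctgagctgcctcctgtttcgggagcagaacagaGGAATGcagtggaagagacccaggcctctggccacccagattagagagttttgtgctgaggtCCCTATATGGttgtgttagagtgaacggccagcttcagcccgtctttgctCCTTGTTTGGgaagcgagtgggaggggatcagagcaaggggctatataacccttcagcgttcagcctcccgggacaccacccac
Lrat: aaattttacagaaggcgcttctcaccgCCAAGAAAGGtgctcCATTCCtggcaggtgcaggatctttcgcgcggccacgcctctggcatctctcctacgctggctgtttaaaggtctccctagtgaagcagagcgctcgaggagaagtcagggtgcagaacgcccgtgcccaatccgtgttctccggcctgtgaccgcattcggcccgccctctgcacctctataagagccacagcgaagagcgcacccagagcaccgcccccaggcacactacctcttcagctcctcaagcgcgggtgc
The Acta2 window held CArG boxes starting at positions -84 and -34 from the start site, and CATTCC on the other strand starting at -146. The Lrat window held a CArG box starting at -223 and CATTCC starting at -208. None of the marked motifs overlapped another. A CArG box by this rule occurred in 9.98% of all 32851 promoter windows and CATTCC in 14.7%. In the Pdgfra window neither was found, and CANNTG, present in 72.3% of all windows, was found at 2 places. TATAAA, present in 13.6% of all windows, was found among the 8 markers searched in the window of Vim. A match of letters is a description and not a binding site.

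Lrat makes lecithin retinol acyltransferase, the enzyme that forms the retinyl esters of the stellate cell droplet. It had 16.6, 18.0 and 22.5 CPM in Fam210aHKO replicates 1 to 3 and 16.4, 18.4 and 21.3 CPM in Ctrl replicates 1 to 3. The groups overlapped almost wholly, and in both the third replicate was highest. The log2 fold change was 0.02 ± 0.177 (SE, adjusted p = 0.938), with a 95% interval from -0.37 to 0.41. By library totals Lrat had a log2 fold change of 0.47 (adjusted p = 0.0518), about the median of all genes by that scaling.

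Of 19 tested genes of retinoid storage and metabolism, 3 were higher and 5 lower, with a median of -0.25. By library totals 6 were higher and 2 lower, with a median of 0.19. By that scaling 42.7% of all 13706 tested genes were higher and 868 genes lower, with a median of 0.47. With the replicate number as a block 3 of the 19 were higher and 7 lower, and 3 were lower without Fam210aHKO replicate 2 or without Ctrl replicate 1. Dhrs9, a retinol dehydrogenase, averaged 13.9 ± 5.94 CPM in Fam210aHKO and 1.52 ± 0.487 CPM in Ctrl (SD, n = 3 each; log2 fold change 3.17 ± 0.363, adjusted p = 0.000122). Cyp26a1, which degrades retinoic acid, was lower (log2 fold change -2.61 ± 0.567, adjusted p = 0.00597), as were Ttr, transthyretin (-1.27 ± 0.280, adjusted p = 0.00651), and Rxra, a retinoid X receptor (-0.75 ± 0.184, adjusted p = 0.0110). Cyp26a1 rests on few counts, 13, 1 and 11 in Fam210aHKO replicates 1 to 3 and 51, 18 and 29 in Ctrl replicates 1 to 3. Ttr stands on the hepatocyte marker list as well. The Rxra call was lost by library totals (log2 fold change -0.31, adjusted p = 0.222) and without Fam210aHKO replicate 2 (adjusted p = 0.0506).

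The receptors for platelet-derived growth factor were next. Pdgfra (chr5:75152292-75198215), which encodes the alpha receptor, had 17.8, 17.8 and 26.0 CPM in Fam210aHKO replicates 1 to 3 and 11.9, 15.5 and 10.8 CPM in Ctrl replicates 1 to 3. Every Fam210aHKO library lay above every Ctrl library, with Fam210aHKO replicate 3 highest. Other annotated genes overlap 6.50% of the exonic bases of Pdgfra. The difference was 1.61-fold, a log2 fold change of 0.69 ± 0.209 (SE, 95% interval 0.23 to 1.15, adjusted p = 0.0306). The call was lost without Fam210aHKO replicate 3 (log2 fold change 0.48, adjusted p = 0.104), without Ctrl replicate 1 (0.63, adjusted p = 0.0987) and without Ctrl replicate 3 (0.56, adjusted p = 0.124). It was lost too by limma on the deposited FPKM, at a log2 difference of 0.43 with a pseudocount of 1 (adjusted p = 0.0850) and 0.59 with a pseudocount of 0.1 (adjusted p = 0.0854).

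Pdgfrb, the beta receptor through which stellate cells proliferate and migrate, had 12.2, 8.60 and 14.6 CPM in Fam210aHKO replicates 1 to 3 and 9.91, 8.04 and 8.74 CPM in Ctrl replicates 1 to 3. Fam210aHKO replicate 2 lay among the Ctrl libraries and the other two lay above them. The log2 fold change was 0.41 ± 0.218 (SE, adjusted p = 0.190), which by library totals was 0.86 (adjusted p = 0.00997) and without Fam210aHKO replicate 3 was 0.23 (adjusted p = 0.481). The log2 ratio of Pdgfra to Pdgfrb counts within a library averaged 0.81 ± 0.254 in Fam210aHKO and 0.51 ± 0.382 in Ctrl (SD, n = 3 each), a difference of 0.30 (exact permutation test, two-sided, p = 0.3, adjusted p = 0.8 over 8 ratios). The groups overlapped in this ratio, which does not depend on scaling, and the smallest p that 3 against 3 libraries allow is 0.1.

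Of 9 tested genes of the ligands and signalling partners of these receptors, 2 were higher and 2 lower, with a median of 0.02. Over all tested genes 14.0% were higher and 13.5% lower. By library totals 6 of the 9 were higher and 0 lower, against 42.7% of all tested genes higher. The median by that scaling was 0.47 for these 9 and 0.47 for all tested genes. Both genes higher by TMM scaling encode ligands of the alpha receptor. Pdgfc averaged 15.8 ± 5.54 CPM in Fam210aHKO and 5.62 ± 1.03 CPM in Ctrl (SD, n = 3 each; log2 fold change 1.49 ± 0.262, adjusted p = 0.00184). Pdgfa averaged 9.92 ± 1.78 CPM in Fam210aHKO and 4.82 ± 1.85 CPM in Ctrl (log2 fold change 1.04 ± 0.278, adjusted p = 0.0169), a call lost without Fam210aHKO replicate 1 (adjusted p = 0.0535) and without Ctrl replicate 3 (adjusted p = 0.0632). The lower genes were Pik3r1, a regulatory subunit of phosphoinositide 3-kinase (-0.58 ± 0.142, adjusted p = 0.0111), and Plcg1, a phospholipase C (-0.64 ± 0.167, adjusted p = 0.0157). Neither was called by library totals (Pik3r1 -0.13, adjusted p = 0.527, and Plcg1 -0.19, adjusted p = 0.422) or without Fam210aHKO replicate 2 (adjusted p = 0.0604 and 0.0762), and Plcg1 was not called without Ctrl replicate 1 or 3 (adjusted p = 0.0504 and 0.0562).

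Hgf and Reln are secreted by stellate cells in the liver. Hgf, hepatocyte growth factor, had 16.2, 28.8 and 37.0 CPM in Fam210aHKO replicates 1 to 3 and 14.6, 21.9 and 23.9 CPM in Ctrl replicates 1 to 3. Replicate 1 was lowest in both groups, and the groups overlapped. Its log2 fold change was 0.44 ± 0.279 (SE, adjusted p = 0.274), and without Fam210aHKO replicate 1 it was 0.69 with an adjusted p of 0.0465. By library totals it was 0.89 (adjusted p = 0.0184).

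Of 11 tested genes of the HGF pathway, which activate HGF, inhibit its activation or carry its signal, 3 were higher and 3 lower, with a median of 0.42 (7 higher and 1 lower by library totals). This was against 14.0% higher and 13.5% lower over all tested genes (42.7% higher by library totals). St14 (matriptase, a protease that can activate HGF; log2 fold change 2.56 ± 0.434, adjusted p = 0.00151), Plaur (the urokinase receptor; 2.23 ± 0.430, adjusted p = 0.00310) and Spint1 (an inhibitor of HGF activator; 2.22 ± 0.456, adjusted p = 0.00441) were higher. Counts were low in Ctrl replicates 1 to 3, at 3, 5 and 9 for St14 and 6, 7 and 7 for Plaur. Spint1 had 2, 4 and 7 counts there. In Fam210aHKO replicates 1 to 3 St14 had 66, 22 and 69 counts, Plaur 57, 49 and 31 and Spint1 30, 17 and 47. Klkb1, plasma kallikrein (-2.28 ± 0.299, adjusted p = 0.000296), and Hgfac, HGF activator (-0.87 ± 0.179, adjusted p = 0.00440), both made by hepatocytes, were lower. The Hgfac call was lost by library totals (-0.43, adjusted p = 0.0956).

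Reln, the extracellular glycoprotein reelin, had 46.6, 65.9 and 114 CPM in Fam210aHKO replicates 1 to 3 and 47.4, 52.8 and 67.5 CPM in Ctrl replicates 1 to 3. Fam210aHKO replicate 1 was below all Ctrl libraries and Fam210aHKO replicate 3 above all of them. For Reln the log2 fold change was 0.43 ± 0.276 (SE, adjusted p = 0.276), which by library totals was 0.88 (adjusted p = 0.0209). Without Fam210aHKO replicate 3 the Reln value was 0.0086 (adjusted p = 0.982). Within Fam210aHKO the highest Reln library was 2.44 times the lowest, against 1.42 times within Ctrl. Of 5 tested genes of the reelin pathway, 2 were higher and 0 lower (5 higher by library totals), against 14.0% higher over all tested genes (42.7% by library totals). Vldlr, a reelin receptor that also takes up lipoproteins, averaged 26.9 ± 6.06 CPM in Fam210aHKO and 6.16 ± 1.61 CPM in Ctrl (SD, n = 3 each; log2 fold change 2.13 ± 0.241, adjusted p = 0.000116). Dab1, the adaptor downstream of the receptor, averaged 1.18 ± 0.655 CPM in Fam210aHKO and 0.162 ± 0.0888 CPM in Ctrl (log2 fold change 2.89 ± 0.637, adjusted p = 0.00601). These levels rest on 15, 13 and 44 counts in Fam210aHKO replicates 1 to 3 and 2, 3 and 1 in Ctrl. The Dab1 call was lost by limma on log2(FPKM + 1) (adjusted p = 0.0772). With the CPM filter 4 genes of the pathway were tested and 1 was higher.

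Rgs5, a regulator of G protein signalling found in pericytes and stellate cells, had 49.8, 50.8 and 72.4 CPM in Fam210aHKO replicates 1 to 3 and 44.7, 41.5 and 55.5 CPM in Ctrl replicates 1 to 3. Ctrl replicate 3 lay above Fam210aHKO replicates 1 and 2, and the third replicate was highest in both groups. For Rgs5 the log2 fold change was 0.29 ± 0.183 (SE, adjusted p = 0.274), which by library totals was 0.73 (adjusted p = 0.0103). Without Fam210aHKO replicate 3 the Rgs5 value was 0.093 (adjusted p = 0.732). The log2 ratio of Rgs5 to Pdgfrb counts averaged 2.30 ± 0.267 in Fam210aHKO and 2.40 ± 0.249 in Ctrl (SD, n = 3 each), a difference of -0.10 (exact permutation test, two-sided, p = 0.7, adjusted p = 0.8). Of 9 tested pericyte genes, Ednrb, an endothelin receptor, was higher (0.60 ± 0.170, adjusted p = 0.0221) and 0 were lower (6 higher and 0 lower by library totals). This was against 14.0% higher over all tested genes (42.7% by library totals). The Ednrb call was lost without Fam210aHKO replicate 2 or 3 and without Ctrl replicate 1 or 3 (adjusted p from 0.0565 to 0.0954).

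The remaining markers belong to the cytoskeleton. Vim, the intermediate filament vimentin, had 23.7, 22.5 and 35.0 CPM in Fam210aHKO replicates 1 to 3 and 20.5, 20.4 and 15.1 CPM in Ctrl replicates 1 to 3. The groups did not overlap, though Fam210aHKO replicates 1 and 2 lay close above the highest Ctrl library. The log2 fold change of 0.54 ± 0.206 (SE, 95% interval 0.08 to 0.99) did not pass the threshold (adjusted p = 0.0759), while library totals gave 0.99 (adjusted p = 0.00260) and leaving out Fam210aHKO replicate 3 gave 0.31 (adjusted p = 0.261). The summed level of 13 monocyte and macrophage markers, cells that also make vimentin, ran from 378 to 575 CPM in Fam210aHKO and from 224 to 257 CPM in Ctrl. Of this sum Spp1, also a cholangiocyte marker, made 217, 127 and 256 CPM in Fam210aHKO replicates 1 to 3. In Ctrl replicates 1 to 3 Spp1 made 49.7, 44.8 and 32.7 CPM. The part of these cells in the Vim values was not tested.

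Des, the muscle-type intermediate filament desmin, had 3.35, 3.23 and 4.25 CPM in Fam210aHKO replicates 1 to 3 and 4.87, 2.35 and 2.82 CPM in Ctrl replicates 1 to 3. The Ctrl libraries spanned the whole Fam210aHKO range, with Ctrl replicate 1 highest. Its log2 fold change was 0.12 ± 0.298 (SE, adjusted p = 0.801), and it was below 0 without Fam210aHKO replicate 3, Ctrl replicate 2 or Ctrl replicate 3. The log2 ratio of Vim to Des counts averaged 2.89 ± 0.132 in Fam210aHKO and 2.53 ± 0.529 in Ctrl (SD, n = 3 each), a difference of 0.35 (exact permutation test, two-sided, p = 0.4, adjusted p = 0.8). Of 8 tested genes of other intermediate filaments, 2 were higher and 0 lower, against 14.0% and 13.5% of all tested genes. By library totals 7 of the 8 were higher, against 42.7% of all tested genes. With the replicate block 4 of the 8 were higher, and without Fam210aHKO replicate 2 it was 4 of 9 tested. Krt23, a keratin of stressed hepatocytes and bile duct cells (2.73 ± 0.271, adjusted p = 4.93e-05), and Lmna, lamin A (0.78 ± 0.156, adjusted p = 0.00384), were the higher ones.

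Acta2, alpha smooth muscle actin, is the usual marker of the myofibroblast state. It had 46, 70 and 99 counts in Fam210aHKO replicates 1 to 3 and 81, 12 and 41 counts in Ctrl replicates 1 to 3. This was 2.20, 4.82 and 4.34 CPM in Fam210aHKO and 7.04, 0.974 and 2.76 CPM in Ctrl. Both the highest and the lowest of the 6 libraries were Ctrl, a 7.23-fold range against 2.19-fold within Fam210aHKO. The log2 fold change was 0.08 ± 0.535 (SE, adjusted p = 0.929), and its 95% interval from -1.10 to 1.26 holds a 2-fold difference in either direction. Its sign turned without Fam210aHKO replicate 2 or 3 and without Ctrl replicate 2 or 3.

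Tagln, transgelin (SM22), had 3, 3 and 6 counts in Fam210aHKO replicates 1 to 3 and 2, 4 and 2 counts in Ctrl replicates 1 to 3, and so failed the filter. Pooled by group this was 0.206 CPM in Fam210aHKO (exact Poisson 95% interval 0.106 to 0.360) and 0.207 CPM in Ctrl (0.0893 to 0.407), intervals that cover counting error only. A difference could not be detected at this depth. In the annotation 67.9% of the exonic bases of Tagln are overlapped by genes on the other strand, mostly Gm48529, which had 144 counts over the 6 libraries, and the sources used here do not say whether the counting used strand. The Tagln level is therefore uncertain. With no filter its log2 fold change was 0.03 ± 0.766 (adjusted p = 0.986).

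Of 11 tested smooth muscle contractile genes, 2 were higher and 2 lower, with a median of 0.18 (4 higher and 2 lower by library totals). This was against 14.0% higher and 13.5% lower over all tested genes (42.7% higher by library totals). Tpm1, a tropomyosin found in most cells, averaged 74.0 ± 13.9 CPM in Fam210aHKO and 29.5 ± 0.679 CPM in Ctrl (SD, n = 3 each; log2 fold change 1.32 ± 0.162, adjusted p = 0.000192), and Smtn, smoothelin, was higher as well (1.16 ± 0.223, adjusted p = 0.00295). Mylk, myosin light chain kinase, averaged 24.7 ± 7.31 CPM in Fam210aHKO and 72.2 ± 13.6 CPM in Ctrl (log2 fold change -1.55 ± 0.220, adjusted p = 0.000483). Myh11, smooth muscle myosin heavy chain, had 1.48, 2.34 and 2.24 CPM in Fam210aHKO replicates 1 to 3 and 8.87, 2.68 and 6.25 CPM in Ctrl replicates 1 to 3 (-1.56 ± 0.389, adjusted p = 0.0123), a call lost without Ctrl replicate 1 (adjusted p = 0.0619). Ctrl replicate 1 was the highest Ctrl library for Acta2, Des, Myh11, Tpm2 and Myl9, and Ctrl replicate 2 the lowest. Without Ctrl replicate 1 the log2 fold change was 0.98 for Acta2 (adjusted p = 0.181) and 0.47 for Des (adjusted p = 0.283).

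**Figure D3:**
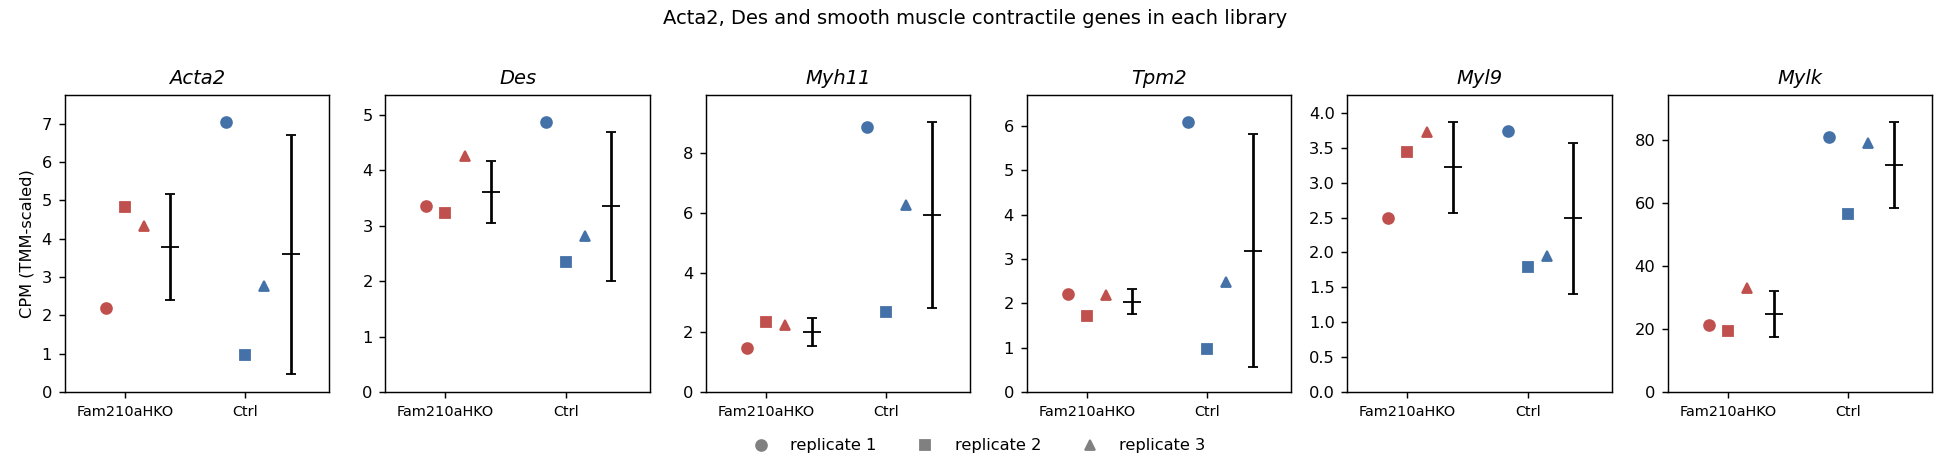
Level in CPM of Acta2 and Des beside 4 smooth muscle contractile genes, chosen after their values were seen, with 1 point a library (circle, square and triangle for replicates 1, 2 and 3) and the group mean ± SD (n = 3 each). Ctrl replicate 1 is the highest Ctrl library in every panel, and the Fam210aHKO libraries lie inside the Ctrl range for Acta2.

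The balance between contractile and retinoid-storing markers did not pass a test. The log2 ratio of Acta2 to Lrat counts averaged -2.40 ± 0.511 in Fam210aHKO and -2.80 ± 1.51 in Ctrl (SD, n = 3 each), a difference of 0.41 (exact permutation test, two-sided, p = 0.7, adjusted p = 0.8). For Acta2 to Des the difference was 0.26 (exact p = 0.6), for Hgf to Lrat 0.37 (exact p = 0.3), for Reln to Lrat 0.33 (exact p = 0.4) and for Tagln to Lrat -0.01 (exact p = 1). All 8 ratios overlapped between the groups, and with 3 libraries a group none could pass.

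**Figure D4:**
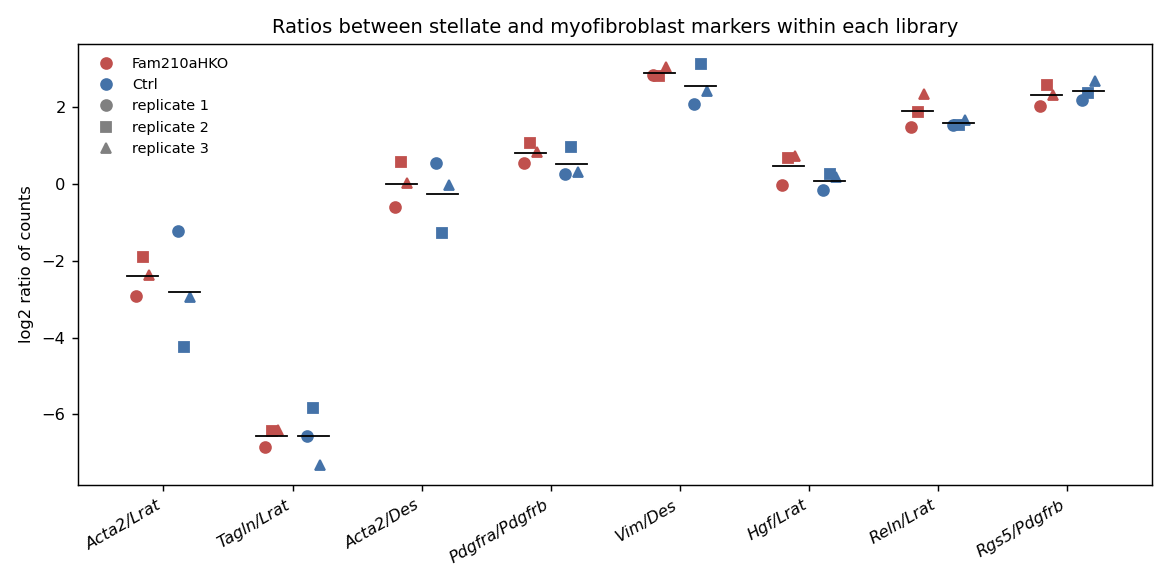
Log2 ratio of the counts of 2 markers within a library, for 8 pairs, with Fam210aHKO in red left of Ctrl in blue, 1 point a library (circle, square and triangle for replicates 1, 2 and 3) and a line at each group mean. The groups overlap in all 8 pairs, and the ratios of Acta2 to Lrat and to Des spread most, within Ctrl.

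Genes that accompany these markers gave other counts. Of 26 tested further stellate cell genes, 5 were higher and 1 lower (against 14.0% and 13.5% of all tested genes), with a median of 0.28. By library totals 16 of the 26 were higher (against 42.7% of all tested genes) and 1 lower. With the replicate block or without Ctrl replicate 2 there were 2 lower, and without Fam210aHKO replicate 1 or Ctrl replicate 3 there were 3 higher. Tcf21, a transcription factor of stellate cells, averaged 6.12 ± 0.288 CPM in Fam210aHKO and 2.76 ± 0.416 CPM in Ctrl (SD, n = 3 each; log2 fold change 1.14 ± 0.222, adjusted p = 0.00318). Adamtsl2, a matrix protein, was higher by 1.11 ± 0.249 (adjusted p = 0.00698). Cxcl12, a chemokine also made by endothelial cells, averaged 121 ± 18.5 CPM in Fam210aHKO and 323 ± 37.0 CPM in Ctrl (log2 fold change -1.41 ± 0.164, adjusted p = 0.000135). The summed level of this list ran from 878 to 1024 CPM in Fam210aHKO and from 966 to 1081 CPM in Ctrl, and the groups overlapped. Cxcl12 alone made 104.5 to 141 CPM of this sum in Fam210aHKO and 292 to 364 CPM in Ctrl. The lower sums in Fam210aHKO thus rest on that gene. Without it the summed level was higher in every Fam210aHKO library than in every Ctrl library. By library totals the summed level ran from 1035 to 1189 CPM in Fam210aHKO and from 810 to 954 CPM in Ctrl, without overlap.

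Of 23 tested genes of myofibroblast activation, none of them a marker above, 11 (47.8%) were higher and 0 lower, with a median of 0.80. This was against 14.0% higher and 13.5% lower over all tested genes. Over all tested genes 1922 were called higher in the main fit, 2434 with the replicate block and 5846 (42.7%) by library totals. It was 1897 without Fam210aHKO replicate 3, 1733 without Ctrl replicate 2 and 1339 without Ctrl replicate 3. For the 23 listed genes the count was 7 without Fam210aHKO replicate 3, 7 without Ctrl replicate 2, 6 without Ctrl replicate 3, 15 with the replicate block and 20 by library totals. Lgals1, galectin-1 (1.32 ± 0.241, adjusted p = 0.00222), Ctgf, connective tissue growth factor (0.99 ± 0.199, adjusted p = 0.00372), and Mmp2, a gelatinase (1.56 ± 0.313, adjusted p = 0.00378), had the smallest p-values. Among the 5 fibrillar collagen genes of the list, looked at after their values were known, Col1a1 (1.06 ± 0.315, adjusted p = 0.0285) and Col3a1 (1.07 ± 0.300, adjusted p = 0.0214) were higher, while Col1a2 (0.57, adjusted p = 0.142, and 0.54 with the replicate block, adjusted p = 0.0483, a call), Col5a1 (0.63, adjusted p = 0.163) and Col5a2 (0.76, adjusted p = 0.0986) were not called. Col3a1 had 56.1, 65.2 and 145 CPM in Fam210aHKO replicates 1 to 3 and 46.3, 42.0 and 38.6 CPM in Ctrl replicates 1 to 3, so the library highest for most markers was highest here too. Of 20 tested genes of the transforming growth factor beta pathway, Smad2, a signal transducer (0.54 ± 0.155, adjusted p = 0.0238), and Itgb8, an integrin that activates the latent factor (1.90 ± 0.570, adjusted p = 0.0295), were higher and 0 lower, and 4 were higher with the replicate block and 12 by library totals. Neither call held in edgeR without Fam210aHKO replicate 1 or Ctrl replicate 3 (adjusted p from 0.0653 to 0.125), Smad2 was not called without Fam210aHKO replicate 2 or Ctrl replicate 1 (adjusted p = 0.0995 and 0.0813), and Itgb8 not without Ctrl replicate 2 (adjusted p = 0.0971).

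**Figure D5:**
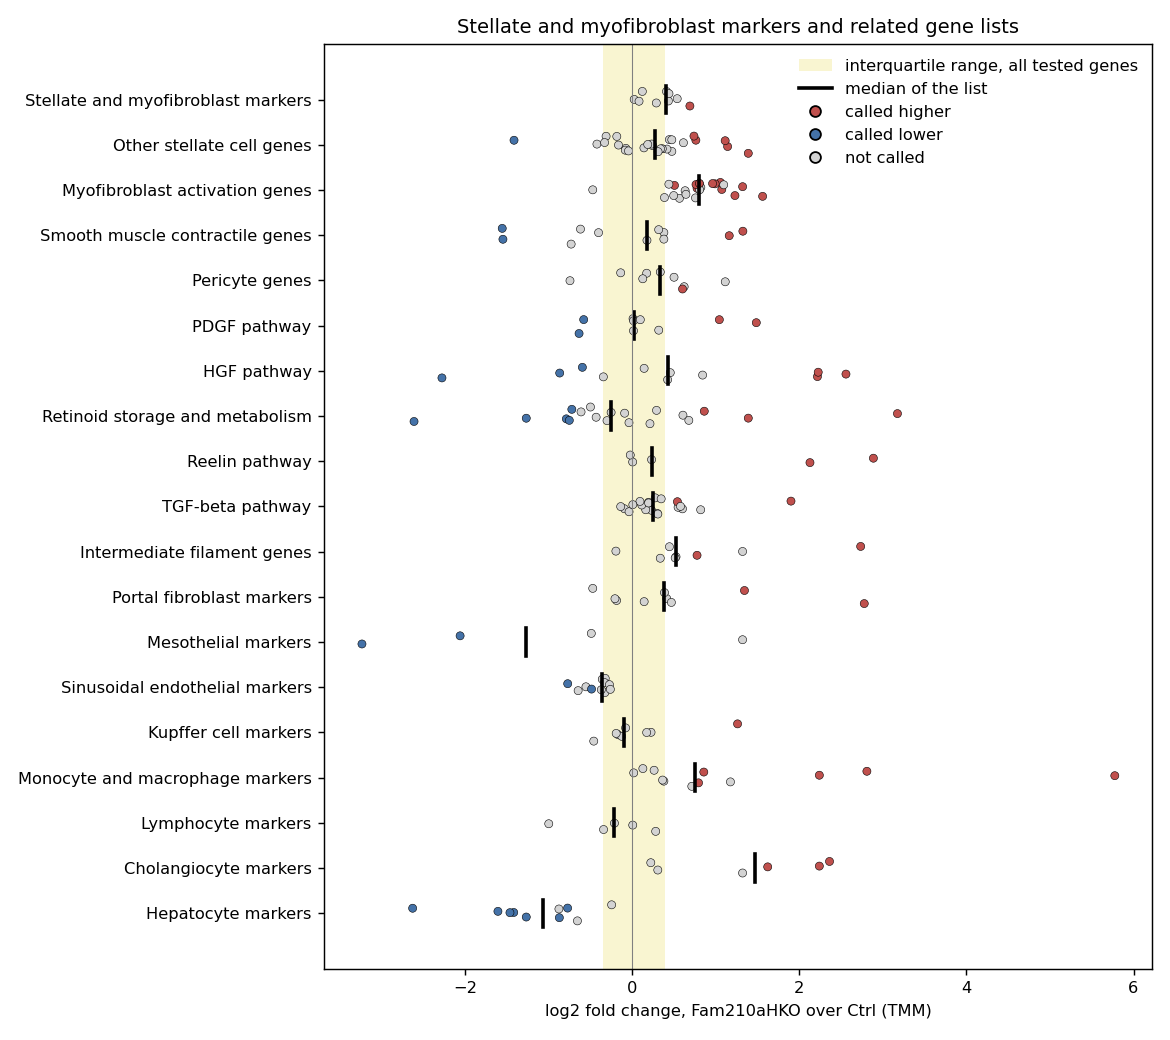
Log2 fold change of Fam210aHKO over Ctrl for each tested gene (points, vertical scatter is for display) of the stellate and myofibroblast markers and of 18 related lists, with a bar at the median of each list and a band over the interquartile range of all tested genes. The marker median is 0.41, that of the myofibroblast activation genes 0.80 and that of the hepatocyte markers -1.07.

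Markers of the other cells of the liver were counted the same way. Portal fibroblasts, another source of myofibroblasts, had 2 of 9 tested markers higher and 0 lower, Entpd2 (2.78 ± 0.344, adjusted p = 0.000204) and Eln (1.34 ± 0.324, adjusted p = 0.0103, lost without Ctrl replicate 3 at adjusted p = 0.0518), and their summed level was 54.0 to 73.0 CPM in Fam210aHKO and 29.5 to 45.7 CPM in Ctrl. Of 4 tested mesothelial markers, Upk3b (-3.23 ± 0.678, adjusted p = 0.00456) and Msln (-2.06 ± 0.500, adjusted p = 0.0107) were lower and 0 higher. Of the 4 log2 fold changes 1 was above 0. With the replicate block or without Fam210aHKO replicate 2, 1 was called higher and 2 lower. The same held by library totals, with or without the block, and with library sizes without the 50 most abundant genes. With no filter 8 were tested, 1 higher and 3 lower. The summed level of the mesothelial list was 2.75 to 6.84 CPM in Fam210aHKO and 7.06 to 8.20 CPM in Ctrl. Counts were low, with 6, 0 and 1 for Upk3b in Fam210aHKO replicates 1 to 3 and 15, 12 and 19 in Ctrl. Msln had 9, 4 and 3 counts in Fam210aHKO and 16, 16 and 13 in Ctrl. With the CPM filter 2 mesothelial markers were tested and 0 called. Of 11 tested sinusoidal endothelial markers, Stab2 (-0.77 ± 0.252, adjusted p = 0.0418) and Clec4g (-0.49 ± 0.160, adjusted p = 0.0435) were lower and 0 higher. Their median of -0.36 became 0.10 by library totals, against 0.47 over all tested genes by that scaling. Of these endothelial markers 5 were lower with the replicate block and 6 without Fam210aHKO replicate 3, against 1 without Ctrl replicate 1 and 0 without any other single library or by library totals.

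Kupffer cells had Marco higher (1.26 ± 0.247, adjusted p = 0.00332) among 8 tested markers and 0 lower, and monocytes and macrophages had 5 of 12 higher and 0 lower, led by Gpnmb (5.78 ± 0.462, adjusted p = 1.5e-05), Spp1 (2.24 ± 0.254, adjusted p = 0.000116) and Trem2 (2.81 ± 0.386, adjusted p = 0.000400). Of 5 tested lymphocyte markers edgeR called 0 (1 lower at an unadjusted p under 0.05, and 1 lower with the replicate block, without Fam210aHKO replicate 3 or without Ctrl replicate 2), and the most abundant, Cd79b and Cd4, had adjusted p-values of 0.702 and 0.0548. Of 6 tested cholangiocyte markers 3 were higher (6 of 8 tested without Fam210aHKO replicate 2) and 0 lower, Prom1 (2.36 ± 0.252, adjusted p = 8.09e-05), Spp1, which is on both lists, and Epcam (1.62 ± 0.411, adjusted p = 0.0132), at a summed level of 159 to 300 CPM in Fam210aHKO and 55.3 to 75.3 CPM in Ctrl. Most of that sum was Spp1, at 127 to 256 CPM in Fam210aHKO and 32.7 to 49.7 CPM in Ctrl. Of 10 hepatocyte markers 7 were lower and 0 higher, among them Serpina1c (-2.63 ± 0.189, adjusted p = 7.33e-06), F9 (-1.46 ± 0.163, adjusted p = 0.000102) and Apoa1 (-1.61 ± 0.314, adjusted p = 0.00323). By library totals the higher markers were 5 of 9 for portal fibroblasts, 3 of 8 for Kupffer cells, 8 of 12 for monocytes and macrophages and 5 of 6 for cholangiocytes, and 5 of the 10 hepatocyte markers were lower. Over all tested genes 42.7% were higher by that scaling. No marker of these cell types was at 0 in all 6 libraries, and the part that these cells had in the values of Pdgfra, Vim and the other stellate and myofibroblast markers was not tested. Where a list had no call in a direction, DESeq2 made none there either.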

How the data were processed

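The deposited table holds whole-number counts, 1 row an Ensembl gene and 1 column a library, unnormalized. FPKM values, also deposited by the authors, served as an alternative. The tools FastQC, Trimmomatic, STAR, featureCounts and DESeq2 and the build mm10 are named per the submitters' processing notes, without versions. Whether counting used strand, and how reads with several hits were treated, is not given in the sources used. RNA was enriched on poly-T beads, per the labels.

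Fam210aHKO was compared with Ctrl in edgeR 4.0.16 (R 4.3.3) with TMM scaling, filterByExpr at a minimum count of 10 and the quasi-likelihood F test (two-sided), and p-values were adjusted by Benjamini-Hochberg over 13706 tested genes. A call is an adjusted p under 0.05. Ratios between markers were tested by exact permutation. Tested on simulated data, with 200 genes changed, the fit recovered 55.7% of those changed by 1 log2 unit and 98.4% of those changed by 2. Unchanged genes made up 11 of 119 calls at 1 log2 unit and 12 of 199 at 2. The simulation changed fewer genes than were called in the data, so its rates need not hold there. Replicates differed beyond counting noise (common biological coefficient of variation 0.196).

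Replicate numbers are shared by the groups. Deviations from the group means correlated at 0.245, 0.182 and 0.155 between same-numbered libraries and from -0.141 to -0.0262 between others. Same-numbered libraries were thus the more alike. Deviations sum to 0 within a group, so these values are not independent and cannot establish a pairing. The main fit and the permutation tests did not use the numbers. A fit with the number as a block was an alternative. Others were DESeq2 1.42.0, limma 3.58.1 on logs and voom weights, other scalings, filters and thresholds, and leaving out each library.

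The markers and 18 further lists (249 entries, 247 matched, Ccn2 and Mrtfb by the older symbols Ctgf and Mkl2) were chosen with earlier results of these data known. Named were all 10 markers and Fam210a, and in each list at most 3 called genes of smallest p in the direction with more calls and at most 2 in the opposite one; a list without calls is represented by its 2 most abundant tested genes. Results of 1 gene that the rule selects are not reported here.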

Additional observations from a re-analysis of the deposited data

How the results depend on the processing

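The count of markers called higher (1 by TMM scaling) was 1 as well by median-of-ratios and upper-quartile scaling, without a filter, with a CPM filter, by DESeq2, by limma-voom and with the replicate block. It was 6 by library totals, 4 with library sizes without the 50 most abundant genes (Pdgfra, Pdgfrb, Rgs5 and Vim), 7 with the replicate block and library totals, 0 by limma on log2(FPKM + 1) or log2(FPKM + 0.1), and 0 at an adjusted p under 0.01 or with a 2-fold minimum. Leaving out 1 library gave from 0 to 2. Pdgfra (0.69, adjusted p = 0.0306) was not called at 0.01. The log2 fold changes without the 50 most abundant genes were Pdgfrb 0.67, Rgs5 0.55 and Vim 0.80. With the block and library totals they were Lrat 0.47 (adjusted p = 0.0174), Pdgfrb 0.84, Rgs5 0.73, Reln 0.81, Hgf 0.85 and Vim 0.98. By library totals they were Pdgfrb 0.86, Rgs5 0.73, Reln 0.88, Hgf 0.89 and Vim 0.99. On FPKM, Pdgfra had 0.43 (pseudocount 1) and 0.59 (pseudocount 0.1), and Lrat turned to -0.038 and -0.045. Over the single libraries left out, Lrat ranged from -0.11 to 0.11, Des from -0.091 to 0.47 and Acta2 from -0.38 to 0.98, none of them called, Pdgfra from 0.48 to 0.84, Hgf from 0.15 to 0.69, Reln from 0.0086 to 0.67 and Rgs5 from 0.093 to 0.40. The replicate block changed no marker's call (Pdgfra adjusted p = 0.0191).

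All genes called were 1922 higher and 1852 lower, against 5846 and 868 by library totals, 3706 and 1170 without the 50 most abundant genes, 6787 and 1072 with the replicate block and library totals, 1094 and 1068 at an adjusted p under 0.01, and 1052 and 950 with a 2-fold minimum. Cd79b, uncalled throughout, turned from -0.21 to 0.24, 0.045 and 0.22 under the first 3 of these, and ranged from -0.52 to 0.022 over the single libraries left out, the highest without Fam210aHKO replicate 1. Depth limits Tagln, at 12 counts in Fam210aHKO and 8 in Ctrl; the Ctrl libraries of Acta2 (0.974 to 7.04 CPM) spread beyond the counting interval of their pooled level (2.90 to 4.10 CPM). The cause of these shifts was not tested, other than that the scalings differ by the factors given with the library totals.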
